A study of Saccharomyces cerevisiae with 32 samples.

Results

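In cultures of the budding yeast Saccharomyces cerevisiae moving together through the cell cycle, transcript levels at 60 min after release from a G1 arrest were set against those at 45 min. The comparison used 8 of 32 arrays. Mutant cells (4P) and control cells (WT) each had 2 arrays at 60 min and 2 at 45 min, giving 4 arrays a side, and each array at 60 min was paired with the array at 45 min of its own genotype and replicate time course. The 4P cells, which the submitters call a phosphomutant, carried the alleles yhp1-13A-13MYC and yox1-9A-3V5 of the repressors Yhp1 and Yox1, and tos4-9A-3FLAG and hcm1-15A-3HA of the factors Tos4 and Hcm1. The WT cells carried the same tags on unmutated proteins, as YHP1-13MYC, YOX1-3V5, TOS4-3FLAG and HCM1-3HA, so the tags are shared by both genotypes and were not varied. Both had been arrested with the mating pheromone alpha-factor and were sampled every 15 min from 0 to 105 min. The other channel of each array was a common reference, RNA from untagged cells in mid-log growth. The series title ties these S-phase transcription factors to the kinase Cdk1, and the step examined here asks which transcripts change as cells pass from mitosis towards the next G1.

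At the end of mitosis budding yeast releases the phosphatase Cdc14, B-type cyclins are destroyed, and the transcription factor Swi5 enters the nucleus and turns on genes such as the Cdk inhibitor SIC1. Daughter cells then express genes for enzymes that cut the septum between mother and daughter. In the same window the promoters of the MCM helicase genes, CDC6, SWI4 and CLN3 are read through the factor Mcm1, which Yox1 and Yhp1 hold down at other times, while transcription of the core histone genes belongs to S phase.

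Each level is given as log2 of the synchronised sample over the reference. A change is 60 min minus 45 min on that scale, and SE is its standard error in the model. All 6205 genes were tested with limma, p values were adjusted over them by Benjamini and Hochberg's method, and a gene was called to rise or fall where its adjusted p was under 0.05. The median SE of a change was 0.112 over both genotypes and 0.158 within one, from 4 and 2 pairs, numbers that limit the precision. On the 8 arrays 96.6% to 99.2% of spots were well above background, and the median signal of the synchronised channel was 15 to 65.5 times background. Both arrays of a pair had the same dye orientation. The pairs 4P replicate 1, 4P replicate 2 and WT replicate 2 each lay on 1 slide, whereas in WT replicate 1 the array at 60 min and the array at 45 min lay on different slides. That array at 60 min also had the lowest agreement with the scanner's own log ratio, at r = 0.815 across probes against a median of 0.981 over the 8 arrays. The WT replicate 2 array at 45 min came next, at r = 0.906. The remaining arrays gave 0.973 to 0.99, so both WT pairs, and neither 4P pair, held an array of lower agreement. A ratio from a whole culture cannot tell fewer cells at a stage from less RNA in each cell, which applies to every value here.

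Between the 2 times 545 genes rose, 8.78% of those tested, and 515 fell, 8.3%, which makes 17.1% in all. Each count within a gene list below is to be read against these shares. Of the risers 73 rose by at least 1 on the log2 scale, and of the fallers 48 fell by as much. The change had the same sign in all 4 pairs for 525 of the risers and 474 of the fallers. All 4 arrays at 60 min lay above all 4 at 45 min for 539 genes, 8.69%, and below them for 520, 8.38%. The median change of all genes was 0.00, with quartiles of -0.15 and 0.14. Without the WT replicate 1 pair, the one that crosses slides, 263 genes rose and 196 fell. The scanner's log ratio gave 251 and 228, and the deposited table of the whole series gave 250 and 238. The next genes were taken from those called with the same sign in all 4 pairs. Among them the largest rises were those of PIR1, ASH1, AIM44, DSE4, EGT2, PST1, BAR1, MLO50, FAR1 and HXT2. The largest falls were those of MET6, MET3, MET14, HTA2, HTA1, STR3, MMP1, MET5, TPO2 and MHT1. Each of these 20 changes kept its direction and its call under every alternative run that gave the gene a value, 14 of 15 for BAR1 and all 15 for the others. Leaving out a pair could not turn a direction here, since the choice of genes required the same sign in all 4 pairs. The choice of the largest called changes also favours keeping the call. At 60 min the arrays held mitotic and M/G1 transcripts together. The CLB2 cluster of mitotic genes still had median levels of 0.79 in 4P and 0.72 in WT, while 12 of 13 measured Swi5 targets had risen.

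**Figure D1:**
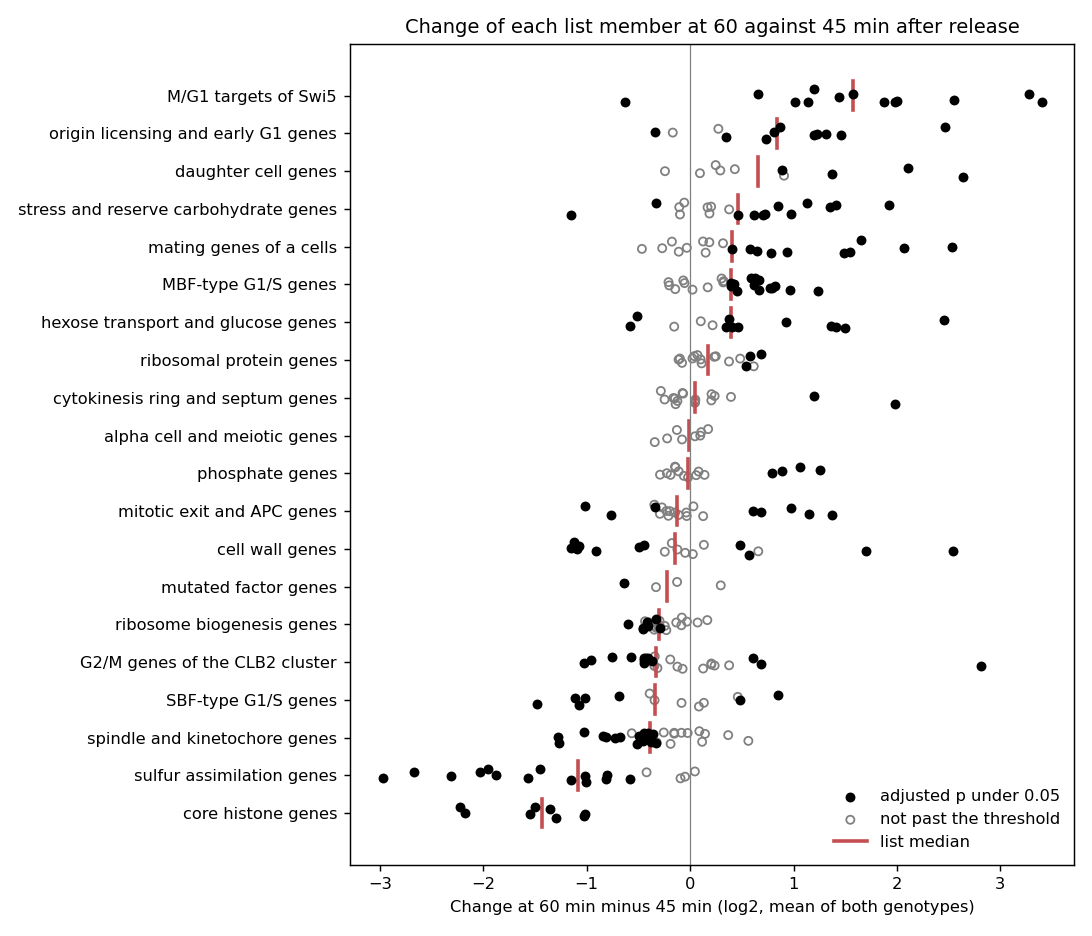
Change at 60 min minus 45 min on the log2 scale (x axis, mean of both genotypes) for each measured member of 20 gene lists (y axis), with filled points past an adjusted p of 0.05, open points not past it and a red bar at the list median. The Swi5 targets have the highest median, 1.58, and the core histone genes the lowest, -1.43.

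The highest median change among the 20 lists was that of the M/G1 targets of Swi5. Of 14 genes listed, 13 were measured, 12 of them rose, and 1, CIS3, fell. The list median was 1.58, against 0.00 over all genes, with pair medians of 1.38 and 1.03 in 4P and 2.17 and 1.97 in WT. The count was 11 without the WT replicate 1 pair. CIS3, a cell wall glycoprotein gene, changed by -0.63 and was not past the threshold without that pair, without 4P replicate 2, with no replicate block, with slide as a block, with the scanner's log ratio or with the deposited table. ASH1, whose product keeps HO silent in daughter cells, gave 0.67 and 0.36 on the 4P arrays and 1.56 and 1.57 on the WT arrays at 60 min, against -2.39 and -2.13 (4P) and -2.45 and -1.95 (WT) at 45 min. The arrays at 60 min all lay above those at 45 min, by 9.67-fold on average, with a change of 3.27 ± 0.17 (SE, adjusted p = 9.42e-12). SIC1, the inhibitor of Cdk1 bound to B-type cyclins, gave 0.10 and 0.55 on the 4P arrays and 1.07 and 1.24 on the WT arrays at 60 min, against -1.00 and -0.53 (4P) and -1.10 and -0.74 (WT) at 45 min. The WT arrays at 60 min were the highest of the 8, the 4P arrays came next, and no array at 45 min reached them. The change of SIC1 was 1.58 ± 0.10 (SE, adjusted p = 3.82e-10), or 2.99-fold.

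EGT2, which encodes a cell wall protein needed for timely separation, gave -1.55 and -1.67 on the 4P arrays and -0.40 and -0.20 on the WT arrays at 60 min, against -3.89 and -2.99 (4P) and -3.95 and -3.20 (WT) at 45 min. The groups did not overlap, although each value stayed below the reference. Its change was 2.55 ± 0.18 (SE, adjusted p = 1.52e-09). The Pho85 cyclin gene PCL9 gave 0.23 and -0.45 on the 4P arrays and 1.20 and 1.14 on the WT arrays at 60 min, against -1.60 and -1.24 (4P) and -1.64 and -0.90 (WT) at 45 min. The arrays at 60 min were above all arrays at 45 min, with a wider gap in WT than in 4P. PCL9 changed by 1.87 ± 0.18 (SE, adjusted p = 8.28e-08), and RME1, which encodes a repressor of meiotic entry, by 2.00 ± 0.14 (SE, adjusted p = 1.16e-09). PIR1, a gene for a cell wall protein linked to glucan, had the largest rise of all genes tested, 3.40 ± 0.23 (SE, adjusted p = 1.25e-09), a 10.5-fold difference. The chitin synthase gene CHS1, whose enzyme repairs the wall after separation, rose by 1.98 ± 0.11 (SE, adjusted p = 1.21e-10).

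The daughter cell genes, many of them for cell separation, did not all pass the threshold. Of 10 measured members 4 rose and 6 did not pass the threshold, with a list median of 0.66. The risers were DSE4, DSE3, AMN1 and BUD9, the last of these named after its values were seen. DSE4, an endoglucanase gene expressed in daughters, gave -0.97 and -1.25 on the 4P arrays and 0.51 and 0.45 on the WT arrays at 60 min, against -3.32 and -2.62 (4P) and -3.17 and -2.70 (WT) at 45 min. All 4 arrays at 60 min exceeded all 4 at 45 min, by 6.22-fold, with a change of 2.64 ± 0.19 (SE, adjusted p = 1.36e-09). AMN1, whose product switches off the mitotic exit network in daughters, rose by 1.38 ± 0.17 (SE, adjusted p = 5.61e-06). The chitinase gene CTS1, whose enzyme cuts the septum, gave -4.44 and -4.30 on the 4P arrays and -3.71 and -3.74 on the WT arrays at 60 min, against -4.91 and -4.03 (4P) and -4.80 and -4.19 (WT) at 45 min. The groups overlapped, and all 8 values stayed far below the reference. The change of CTS1 was 0.43 ± 0.23 (SE, adjusted p = 0.227), and DSE1, DSE2 and SCW11 gave 0.25 ± 0.22 (SE, adjusted p = 0.491), 0.10 ± 0.21 (SE, adjusted p = 0.806) and 0.91 ± 0.39 (SE, adjusted p = 0.12). By pair SCW11 changed by 1.65 and 0.551 in 4P and by 1.545 and -0.115 in WT, so it went up in 3 pairs and down in WT replicate 2. At 75 min, by contrast, the group means of CTS1 stood at -1.15 in 4P and -0.31 in WT, and those of DSE1 at 0.03 in 4P and 0.20 in WT.

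**Figure D2:**
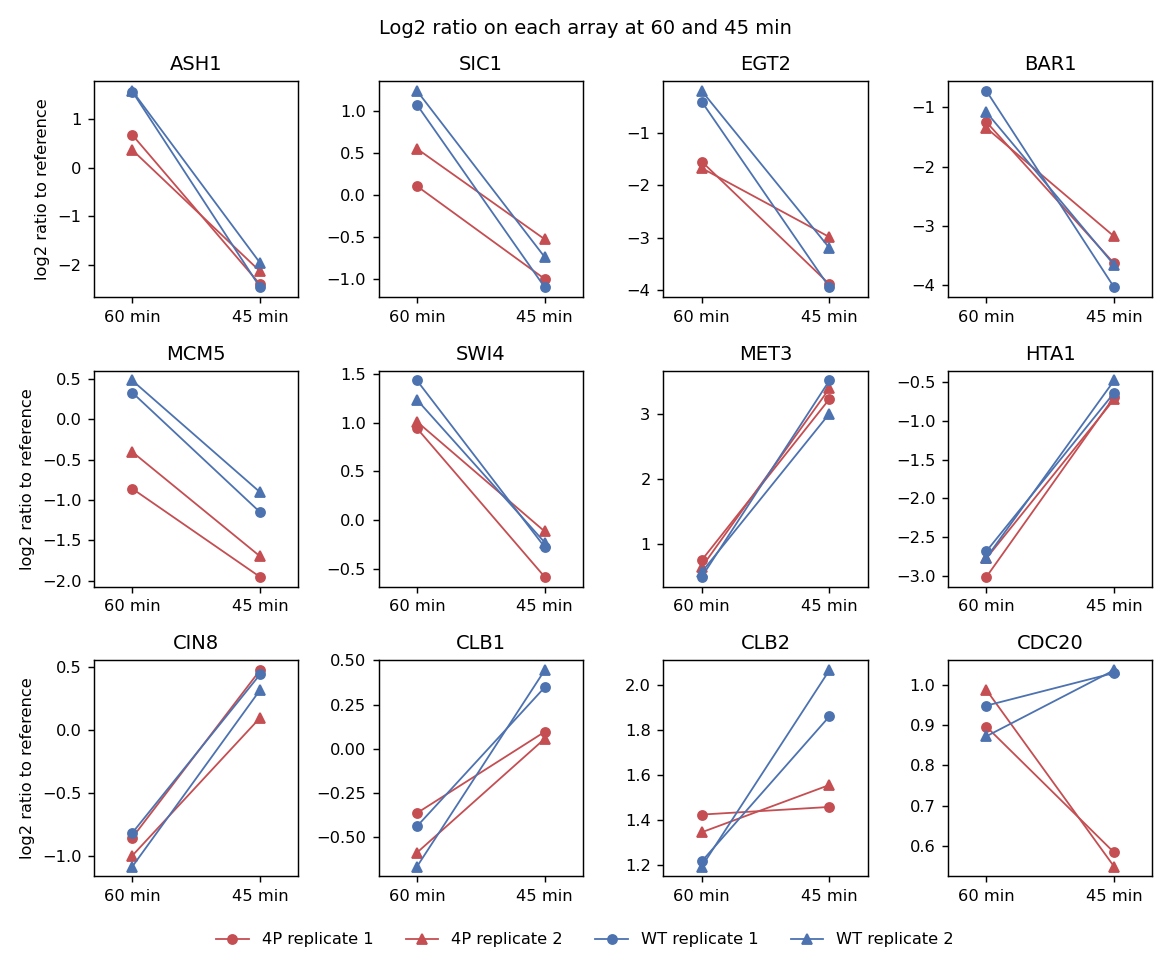
Log2 ratio to the reference (y axis) on each array at 60 min and at 45 min (x axis) for 12 named genes, with lines joining the arrays of a pair, 4P in red, WT in blue, circles for replicate 1 and triangles for replicate 2. For ASH1 all 4 arrays at 60 min lie above all 4 at 45 min, and for MET3 and HTA1 all 4 lie below. For CDC20 the lines of the genotypes slope in opposite directions.

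Genes that prepare the next round of replication mostly rose. Of 12 origin licensing and early G1 genes 9 rose and 1, ORC1, fell, with a list median of 0.84. The count of risers was 8 without the WT replicate 1 pair, and ORC1 was not past the threshold there, with no replicate block, with slide as a block, with the scanner's log ratio or with the deposited table. MCM5, a subunit of the replicative helicase, gave -0.86 and -0.40 on the 4P arrays and 0.33 and 0.48 on the WT arrays at 60 min, against -1.96 and -1.70 (4P) and -1.15 and -0.90 (WT) at 45 min. The arrays at 60 min lay above those at 45 min, and at each time both WT arrays lay above both 4P arrays. MCM5 changed by 1.32 ± 0.09 (SE, adjusted p = 1.36e-09), MCM2 by 1.23 ± 0.12 (SE, adjusted p = 1.46e-07) and MCM7 by 0.73 ± 0.13 (SE, adjusted p = 0.000255). CDC6, which loads the helicase onto origins, gave 1.25 and 1.29 on the 4P arrays and 1.66 and 1.58 on the WT arrays at 60 min, against -0.12 and 0.26 (4P) and 0.54 and 0.31 (WT) at 45 min. It rose by nearly the same amount in 4P, 1.21, and in WT, 1.20, with 1.20 ± 0.10 (SE, adjusted p = 1.42e-08) over both. SWI4, the DNA-binding subunit of the G1/S factor SBF, gave 0.94 and 1.01 on the 4P arrays and 1.43 and 1.23 on the WT arrays at 60 min, against -0.58 and -0.12 (4P) and -0.28 and -0.23 (WT) at 45 min. No value at 45 min reached a value at 60 min, and the change was 1.46 ± 0.10 (SE, adjusted p = 1.1e-09). CLN3, the cyclin that starts G1/S transcription, changed by 0.35 ± 0.11 (SE, adjusted p = 0.0357), and this call was lost under 9 of 15 alternatives, with values from 0.28 to 0.42 there. FAR1, a Cdk inhibitor that also serves the pheromone response, rose by 2.46 ± 0.15 (SE, adjusted p = 2.68e-10), or 5.52-fold.

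The G1/S genes gave rises in 1 group and both directions in the other. Of 25 MBF-type genes, most of them for DNA replication and repair, 14 rose and 11 did not pass the threshold, with a median of 0.40. The count of risers was 9 without the WT replicate 1 pair or without 4P replicate 2, and 8 with the scanner's log ratio or the deposited table. SPT21, which is needed for histone gene transcription, changed by 1.23 ± 0.09 (SE, adjusted p = 1.41e-09), and POL30, the sliding clamp PCNA, by 0.97 ± 0.17 (SE, adjusted p = 0.000307). Of 13 SBF-type genes 2 rose and 5 fell, against 8.78% and 8.3% of all genes, with a median of -0.34. The 2 risers are too few to be read beyond that share. The risers were HO and RSR1, and the fallers SRL1, FKS1, EXG1, GIC1 and MNN1, of which RSR1, EXG1, GIC1 and MNN1 were named after their values were seen. The fallers act in the cell wall or at the bud: FKS1, a glucan synthase subunit, changed by -1.11 ± 0.12 (SE, adjusted p = 1.53e-06), and SRL1, a mannoprotein gene, by -1.48 ± 0.19 (SE, adjusted p = 7.07e-06). The G1 cyclin gene CLN2 gave -1.67 and -1.16 on the 4P arrays and -1.43 and -0.98 on the WT arrays at 60 min, against -1.67 and -1.10 (4P) and -0.92 and -1.22 (WT) at 45 min. These values overlapped, and the change was -0.08 ± 0.17 (SE, adjusted p = 0.792). HO, the mating-type switching endonuclease, changed by 0.84 ± 0.20 (SE, adjusted p = 0.00454) but was not past the threshold without WT replicate 1 or without 4P replicate 2, and RSR1 was not past it without 4P replicate 2.

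Genes of a cells and of the pheromone pathway moved in the same window. Of 19 listed genes 10 rose and 9 did not pass the threshold, with a median of 0.41. The count of risers was 7 without the WT replicate 1 pair and 6 with slide as a block. BAR1 had no estimate with slide as a block, so it could not count there. BAR1, the protease that destroys alpha-factor, gave -1.25 and -1.35 on the 4P arrays and -0.72 and -1.08 on the WT arrays at 60 min, against -3.63 and -3.18 (4P) and -4.04 and -3.66 (WT) at 45 min. The groups were apart in both genotypes, and all values lay below the reference. BAR1 changed by 2.53 ± 0.16 (SE, adjusted p = 1.1e-09) and MFA2, a gene for a-factor, by 2.07 ± 0.14 (SE, adjusted p = 8.85e-10). In the arrested cells at 0 min the group means of BAR1 were 2.15 in 4P and 2.11 in WT, well above those at 60 min, -1.30 in 4P and -0.90 in WT. Among 8 genes of alpha cells and of meiosis none passed the threshold in limma, 2 had an unadjusted p under 0.05, and the list median was -0.02. MF(ALPHA)1, the alpha-factor gene, was well above background on 2 of 4 arrays at 60 min and 1 of 4 at 45 min.

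The CLB2 cluster, the genes read in G2 and M by Mcm1, Fkh2 and Ndd1, fell in part and mostly stayed above the reference. Of 24 members 10 fell and 3 rose, against 8.3% and 8.78% of all genes, with a median change of -0.33. The 3 risers are too few to be read beyond that share. The median level was 0.79 in 4P and 0.72 in WT at 60 min, against 0.90 (4P) and 1.05 (WT) at 45 min, and it was -0.37 in 4P and -0.51 in WT at 75 min. The number of fallers was 4 without the WT replicate 1 pair, 5 with slide as a block, 5 with the scanner's log ratio, and 6 with the deposited table or without 4P replicate 2. CLB1, a mitotic B-type cyclin gene, gave -0.36 and -0.59 on the 4P arrays and -0.44 and -0.67 on the WT arrays at 60 min, against 0.10 and 0.06 (4P) and 0.35 and 0.45 (WT) at 45 min. Every array at 60 min was below every array at 45 min, and the change was -0.75 ± 0.16 (SE, adjusted p = 0.0018). CLB2, the main mitotic cyclin gene, gave 1.42 and 1.34 on the 4P arrays and 1.22 and 1.19 on the WT arrays at 60 min, against 1.46 and 1.56 (4P) and 1.86 and 2.07 (WT) at 45 min. The WT arrays at 45 min were the highest, and the 4P arrays moved little. The change of CLB2 was -0.44 ± 0.14 (SE, adjusted p = 0.0294), that of SWI5 -0.44 ± 0.14 (SE, adjusted p = 0.0299) and that of the Polo kinase gene CDC5 -0.37 ± 0.10 (SE, adjusted p = 0.0176). The calls of CLB2 and SWI5 were each lost under 8 of 15 alternatives and that of CDC5 under 6, all with the same sign. NDD1, which encodes the coactivator of the cluster, changed by -0.68 ± 0.11 (SE, adjusted p = 0.000157) and kept its call under every alternative run.

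The 3 members that rose were AIM44, SPO12 and DBF2, of which SPO12 was named after its values were seen. AIM44 did not follow the course of the list it was placed in. Its WT group mean was -1.90 at 45 min, where the WT median of the list was 1.05, and 1.74 at 60 min. Its highest group mean came at 60 min in WT and at 75 min in 4P, the same times as for the Swi5 targets ASH1, SIC1, PCL9, CDC6 and PIR1. The Swi5 targets EGT2, RME1 and CHS1, in contrast, had theirs at 75 min in both genotypes. DBF2, a kinase of the mitotic exit network, gave 0.38 and 0.31 on the 4P arrays and 0.80 and 0.82 on the WT arrays at 60 min, against -0.50 and -0.47 (4P) and 0.47 and 0.37 (WT) at 45 min. Within each genotype the arrays at 60 min were above those at 45 min, but the 4P arrays at 60 min lay near the WT arrays at 45 min. DBF2 changed by 0.61 ± 0.09 (SE, adjusted p = 3.18e-05), and SPO12, an activator of Cdc14 release, by 0.68 ± 0.15 (SE, adjusted p = 0.00226). The chitin synthase gene CHS2 and the myosin gene MYO1 gave 0.20 ± 0.14 (SE, adjusted p = 0.346) and -0.12 ± 0.10 (SE, adjusted p = 0.45). In the overlapping list of 20 mitotic exit and APC genes, 5 rose and 3 fell, against 8.78% and 8.3% of all genes, with a median of -0.13. The 3 fallers are too few to be read beyond that share. Its risers AMN1, BNS1, ACM1, SPO12 and DBF2 include regulators of Cdc14 and of the APC activator Cdh1, and its fallers were the separase gene ESP1, SLK19 and LTE1. ACM1, ESP1, SLK19 and LTE1 were named after their values were seen. BNS1, a relative of SPO12, rose by 1.15 ± 0.12 (SE, adjusted p = 2.47e-07), and ESP1 changed by -1.02 ± 0.10 (SE, adjusted p = 1.17e-07).

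**Figure D3:**
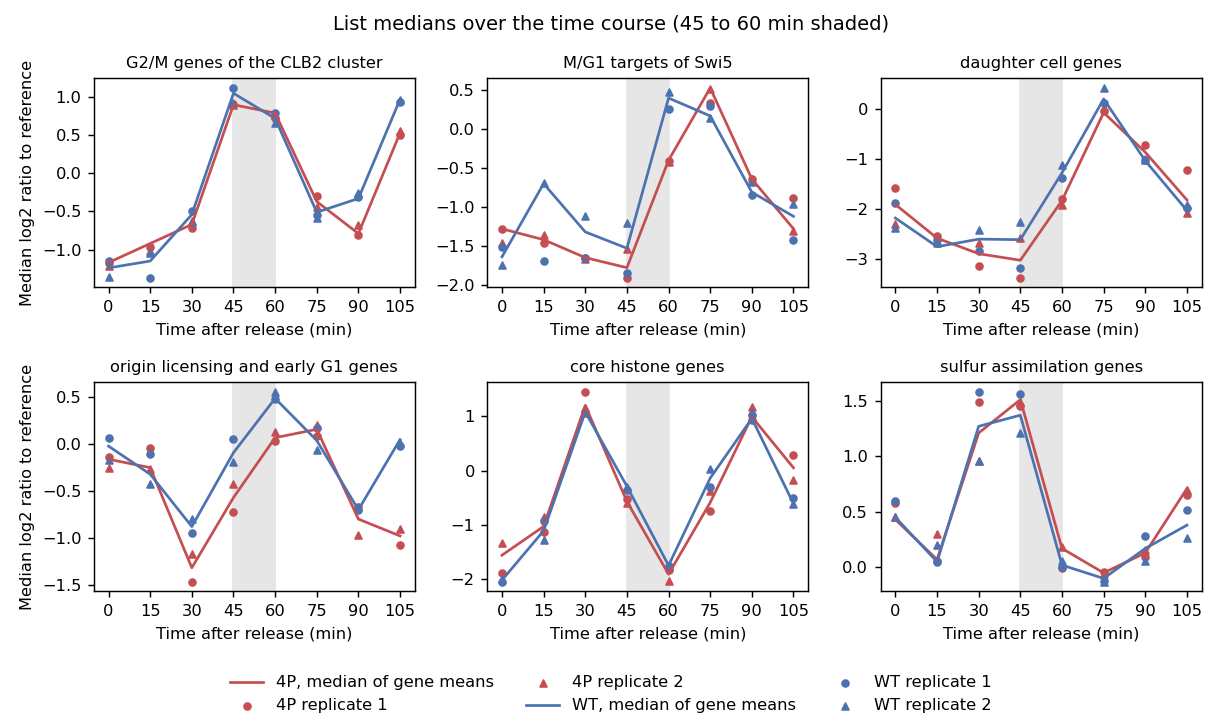
Median log2 ratio to the reference (y axis) of 6 gene lists over the time after release in min (x axis), with 4P in red and WT in blue, lines for the median of group means, circles for replicate 1 and triangles for replicate 2. The step from 45 to 60 min is shaded. There the histone medians stand at -1.91 in 4P and -1.75 in WT at 60 min, and the daughter cell genes do not reach their highest medians until 75 min.

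All 8 core histone genes fell, with a median of -1.43 and pair medians between -1.48 and -1.34. HTA1, a gene for histone H2A, gave -3.02 and -2.77 on the 4P arrays and -2.68 and -2.77 on the WT arrays at 60 min, against -0.69 and -0.72 (4P) and -0.64 and -0.48 (WT) at 45 min. No array at 60 min came within reach of an array at 45 min, and at each time the values of the genotypes lay close together. HTA1 changed by -2.18 ± 0.25 (SE, adjusted p = 1.87e-06) and HTA2 by -2.23 ± 0.19 (SE, adjusted p = 1.32e-08), or 4.53-fold and 4.69-fold lower at 60 min. The smallest falls were those of HHT1, -1.02 ± 0.14 (SE, adjusted p = 2.12e-05), and HHF2, -1.02 ± 0.14 (SE, adjusted p = 2.48e-05). HTB1, HTB2, HHT2 and HHF1 lay between, at -1.29, -1.50, -1.55 and -1.35. Copies of histone genes are alike in sequence, so their probes may share signal.

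Spindle and kinetochore genes fell or did not pass the threshold. Of 33 members 19 fell and 14 did not pass the threshold, with a median of -0.39. The number of fallers was 9 without the WT replicate 1 pair, 13 with slide as a block and 10 with the scanner's log ratio or the deposited table. CIN8, a kinesin that pushes spindle poles apart, gave -0.86 and -1.00 on the 4P arrays and -0.82 and -1.09 on the WT arrays at 60 min, against 0.47 and 0.10 (4P) and 0.44 and 0.32 (WT) at 45 min. The arrays at 60 min lay below all arrays at 45 min in both genotypes. CIN8 changed by -1.27 ± 0.12 (SE, adjusted p = 5.94e-08) and SPC98, a subunit of the gamma-tubulin complex, by -1.27 ± 0.09 (SE, adjusted p = 1.75e-09). Of the genes for the mutated factors themselves, 1 of 4 fell, the repressor gene YHP1, a count too small to set against the 8.3% of all genes. YHP1 gave -2.51 and -2.67 on the 4P arrays and -2.21 and -2.20 on the WT arrays at 60 min, against -2.14 and -2.23 (4P) and -1.38 and -1.28 (WT) at 45 min. Within each genotype the values at 60 min were lower, and the 4P arrays were below the WT arrays at each time. Its change was -0.64 ± 0.10 (SE, adjusted p = 9.8e-05). HCM1, YOX1 and TOS4 gave -0.33 ± 0.19 (SE, adjusted p = 0.254), -0.13 ± 0.19 (SE, adjusted p = 0.703) and 0.30 ± 0.22 (SE, adjusted p = 0.396). In 4P these transcripts come from the mutant alleles, and whether a probe lies over mutated codons was not tested.

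Outside the cell cycle machinery the sulfur assimilation genes had the most pronounced fall. Of 18 members 14 fell and 4 did not pass the threshold, with a median of -1.08. MET3, ATP sulfurylase, the first enzyme of sulfate assimilation, gave 0.75 and 0.64 on the 4P arrays and 0.49 and 0.57 on the WT arrays at 60 min, against 3.23 and 3.39 (4P) and 3.52 and 3.01 (WT) at 45 min. All arrays at 45 min were far above the reference and above those at 60 min. MET3 changed by -2.67 ± 0.13 (SE, adjusted p = 4.9e-12), or 6.38-fold lower at 60 min. MET6, methionine synthase, gave -1.24 and -1.40 on the 4P arrays and -0.88 and -0.66 on the WT arrays at 60 min, against 1.57 and 1.94 (4P) and 2.04 and 2.16 (WT) at 45 min. The 2 times did not overlap, and the sign of the ratio turned on every pair. MET6 changed by -2.97 ± 0.21 (SE, adjusted p = 1.1e-09), the largest fall of all genes tested. MET14, MET5 and STR3, which serve sulfate assimilation and transsulfuration, changed by -2.31, -1.87 and -2.03, the S-methylmethionine permease MMP1 changed by -1.95, and TPO2, a polyamine exporter gene outside the list, by -1.86. MHT1, which uses S-methylmethionine to make methionine and was not in the list, changed by -1.83 ± 0.13 (SE, adjusted p = 1.36e-09). The median change of the list was -1.14 in 4P and -1.06 in WT. The median level of the list was 0.17 in 4P and 0.02 in WT at 60 min, against 1.51 (4P) and 1.37 (WT) at 45 min.

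Rises among genes of reserve carbohydrates and of glucose uptake outnumbered falls. Of 19 stress and reserve carbohydrate genes 10 rose and 2, HSP12 and HSP26, fell, with a median of 0.46. The counts were 9 and 1 without WT replicate 1, without 4P replicate 2, with slide as a block, with the scanner's log ratio and with the deposited table. TSL1, a subunit of the trehalose synthase complex, gave -0.08 and -0.17 on the 4P arrays and 0.68 and 0.46 on the WT arrays at 60 min, against -1.92 and -1.44 (4P) and -1.76 and -1.68 (WT) at 45 min. The arrays at 60 min all lay above those at 45 min, and the change was 1.93 ± 0.16 (SE, adjusted p = 1.31e-08). TPS2, the trehalose phosphatase, rose by 1.41 ± 0.10 (SE, adjusted p = 1.36e-09). HSP12, a small membrane stress protein gene named after its values were seen, changed by -1.15 ± 0.12 (SE, adjusted p = 2.93e-07), against the direction of the trehalose genes. Of 14 hexose transport and glucose genes 9 rose and 2, HXT1 and HXT5, fell, with a median of 0.39. HXT2, a high-affinity glucose transporter gene, gave -0.54 and -0.98 on the 4P arrays and 0.09 and 0.36 on the WT arrays at 60 min, against -2.91 and -2.41 (4P) and -2.97 and -2.63 (WT) at 45 min. The groups did not overlap, and the change was 2.46 ± 0.17 (SE, adjusted p = 1.31e-09). The hexokinase gene HXK1 rose by 1.50 ± 0.18 (SE, adjusted p = 3.47e-06). Probes for close relatives among the HXT genes may share signal. The hexose count fell to 7 without the WT replicate 1 pair and to 5 without WT replicate 2 or 4P replicate 2.

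Cell wall genes went both ways, with 4 rises and 7 falls among 18 and a median of -0.15. The rises numbered 2 without 4P replicate 2, with the scanner's log ratio and with the deposited table. PST1, which encodes a GPI-anchored wall protein, rose by 2.54 ± 0.24 (SE, adjusted p = 1.05e-07) and the mannoprotein gene TIP1 by 1.70 ± 0.22 (SE, adjusted p = 7.44e-06). UTH1 and UTR2, named after their values were seen, were the other risers. Of 17 cytokinesis ring and septum genes 2 rose, CHS1 and CYK3, and 15 did not pass the threshold, a share of risers near the 8.78% of all genes. With slide as a block CYK3 rose, and CHS1 had no estimate. CYK3, which promotes septum formation, changed by 1.20 ± 0.12 (SE, adjusted p = 2.47e-07). Of 15 phosphate genes 4 rose, against 8.78% of all genes, and 11 did not pass the threshold, with a median of -0.02. The risers were the acid phosphatase genes PHO3, PHO11 and PHO12 and the phosphatase gene PHM8, of which PHO11 and PHO12 were named after their values were seen and are near-identical copies. PHO3 gave 1.44 and 1.03 on the 4P arrays and 1.45 and 1.58 on the WT arrays at 60 min, against -0.20 and -0.02 (4P) and 0.84 and 0.64 (WT) at 45 min. The arrays at 60 min were above all arrays at 45 min, and the change was 1.06 ± 0.14 (SE, adjusted p = 1.05e-05). PHO5 and the transporter gene PHO84, both read when phosphate is short, gave 0.08 ± 0.10 (SE, adjusted p = 0.626) and -0.06 ± 0.16 (SE, adjusted p = 0.838).

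Of 23 ribosome biogenesis genes 7 fell, with a median of -0.30 and pair medians of -0.34 and -0.33 in 4P and -0.32 and -0.22 in WT. None fell past the threshold in limma without WT replicate 1, where 8 had an unadjusted p under 0.05. The count was 3 without 4P replicate 2 or with slide as a block, 1 with the scanner's log ratio or the deposited table, and 13 with median centring. The helicase gene DBP2 fell in all 4 pairs, with a change of -0.60 ± 0.13 (SE, adjusted p = 0.00207), and RRP12 changed by -0.46 ± 0.12 (SE, adjusted p = 0.0102). Of 16 ribosomal protein genes RPS3, RPL4A and RPS2 passed the threshold as higher at 60 min, 3 genes, and RPS2 was named after its values were seen. Over the alternatives this count ran from 0 to 6, and it was 0 in limma without WT replicate 1, where 0 had an unadjusted p under 0.05. Spots of RPS3 and RPL4A were saturated on 5 of the 8 arrays, and both genes read 1.22 on the WT replicate 1 array at 60 min. On the WT replicate 2 arrays both read -0.28 at 60 min, against -0.60 at 45 min. Ratios of saturated spots do not give the size of a change, so no mean change is given for these genes.

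The change was then compared between the genotypes. Of the 6205 genes 167 rose and 149 fell in 4P, which is 2.69% and 2.4%, or 5.09% in all. In WT 332 rose and 292 fell, which is 5.35% and 4.71%, or 10.1% in all. Across genes the changes of both 4P pairs correlated at r = 0.516 and those of both WT pairs at r = 0.741. Between a 4P pair and a WT pair r ran from 0.624 to 0.739. The 4P pairs thus agreed least with each other, which limits the comparison of the genotypes. The difference of the change, 4P minus WT, passed the threshold in limma for 1 gene, 0.0161%. That gene was AIM44, which encodes a bud neck protein. An unadjusted p under 0.05 was found in limma for 184 of the 6205 genes, a share below 0.05. Where no gene differs, that cut-off alone gives a share of 0.05 on average, so the count shows no surplus of small p values. AIM44 gave 0.53 and 0.63 on the 4P arrays and 1.69 and 1.78 on the WT arrays at 60 min, against -1.65 and -1.17 (4P) and -2.19 and -1.60 (WT) at 45 min. At 60 min both WT arrays were above both 4P arrays, and at 45 min the genotypes overlapped. AIM44 rose by 1.99 in 4P and 3.63 in WT, a difference of -1.64 ± 0.22 (SE, adjusted p = 0.00196). The call was lost in 7 of 15 alternatives, among them without WT replicate 1, where the difference was -1.39 (adjusted p = 0.263), and its values over all 15 ran from -1.89 to -1.39. The glycogen phosphorylase gene GPH1 and MLO50, SIC1, CHS1 and YNL046W had the next smallest p values, with differences of -1.00 ± 0.19 (SE, adjusted p = 0.0969), -1.39 ± 0.27 (SE, adjusted p = 0.101), -0.98 ± 0.20 (SE, adjusted p = 0.135), -1.01 ± 0.21 (SE, adjusted p = 0.179) and -0.91 ± 0.20 (SE, adjusted p = 0.222), none past the threshold.

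Among the 545 risers the change was smaller in 4P than in WT for 377, or 69.2%, against 49.9% of all genes, and the medians were 0.45 in 4P and 0.55 in WT. By pair the median of the risers was 0.45 and 0.47 in 4P and 0.64 and 0.48 in WT, so the highest value was that of the pair across slides. Among 13 Swi5 targets the signed change was lower in 4P than in WT for 12, with list medians of 1.20 in 4P and 2.07 in WT. The 12 include CIS3, whose change was -0.64 in 4P and -0.62 in WT. At 75 min the median level of the Swi5 targets was 0.53 in 4P and 0.17 in WT. Among 24 genes of the CLB2 cluster 22 had a higher change in 4P, with medians of -0.07 in 4P and -0.45 in WT. CDC20, the APC activator, went up in both 4P pairs, by 0.31 and 0.44, and down in both WT pairs, by -0.08 and -0.16, but its difference of 0.50 ± 0.25 (SE, adjusted p = 1) was not past the threshold. For the histone and sulfur lists the median differences were 0.07 and -0.01. A constant shift of a slide cancels in the pairs that lie on 1 slide, but not in WT replicate 1. The genotypes lay largely on different slides, so a genotype difference and a slide difference in the size of a change cannot be told apart. The number of calls per genotype is not a test of a difference.

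**Figure D4:**
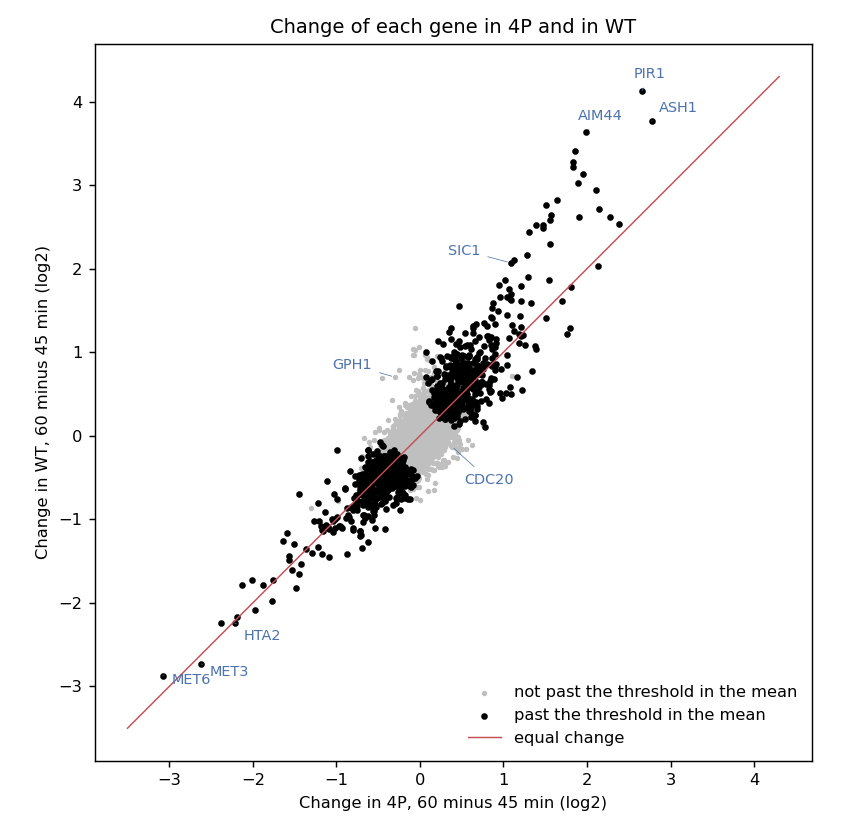
Change at 60 min minus 45 min on the log2 scale in 4P (x axis) and in WT (y axis) for the 6205 genes tested, with black points past an adjusted p of 0.05 in the mean of both genotypes, grey points not past it and a red line where both changes are equal. AIM44 lies at 1.99 in 4P and 3.63 in WT, above the line, and MET3 lies near it at -2.62 in 4P and -2.73 in WT.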

How the data were processed

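The submitters' processing notes name Agilent Feature Extraction 10.7.1.1 as the tool that read the scans. Each channel has a median signal and background intensity, and each spot a log10 ratio of red over green, per the file headers. The authors' deposited table of the whole series holds log2 ratios whose normalisation the sources used here leave unstated. Per the labels' protocols, amplified RNA made by in vitro transcription was dyed with Cy3 or Cy5, and the dyes were exchanged in replicate 2.

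Background was corrected here with normexp (offset 50) and ratios were normalised by loess within each array in limma 3.58.1 (R 4.3.3), turned to synchronised sample over reference, and averaged over the spots of a probe and the probes of a gene. A probe was kept where the synchronised channel was well above background on all arrays of at least 1 group, which left 6205 genes. A design written for mean signals was run on the medians the files hold. The fit took all 32 arrays with a mean for each of 16 groups and the time course, that is genotype and replicate, as a block, since the study's design makes arrays of a genotype and replicate number 1 course. Deviations of replicates at 60 and 45 min correlated at r = 0.182 in 4P and 0.371 in WT across genes. The mean of both genotypes, each genotype and the difference were tested. Each p value sets a change against the residual spread over all 32 arrays, with 14 residual degrees of freedom and 6.91 from limma's prior. Nothing in the labels says whether the cultures were otherwise independent, so p values speak for these arrays and not for further cultures.

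The gene lists and the genes named were chosen with earlier results of these data known. Named were 36 set genes, the 10 largest rises and 10 largest falls with the same sign in all 4 pairs, the 2 largest called changes of each list, the 6 genes with the strongest evidence of a genotype difference, and all members of lists of at most 8 genes. Any other gene was named after its values were seen, to complete a count of 5 or fewer or beside a list. Gene names came from the array annotation and a RefSeq table of assembly R64, which matched 5737 of 6225 systematic names. No coordinates are given because the array annotation uses another build. Alternatives changed the block, the arrays, the starting value, the normalisation, the background correction, the filter on dim probes, array weights, the slide and single pairs. A search of promoters for motifs was not run.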

Additional observations from a re-analysis of the deposited data

Results flagged for a closer look

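The difference between the genotypes in the change of AIM44, -1.64, was the 1 such difference past the threshold in limma. The pair changes were 2.18 and 1.80 in 4P and 3.89 and 3.38 in WT.

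The changes of GPH1 and CDC20 had opposite signs in the genotypes. In limma within a genotype, GPH1 passed the threshold in WT (adjusted p = 0.00119) but not in 4P (adjusted p = 0.269). CDC20 passed it in neither, with adjusted p = 0.290 in 4P and 0.748 in WT. GPH1 changed by -0.23 and -0.36 in 4P and by 0.76 and 0.65 in WT, a difference of -1.00 that was not past the threshold (adjusted p = 0.0969). CDC20 had a difference of 0.50, not past the threshold either (adjusted p = 1.00).

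In 4 named genes 1 pair stood apart from the other 3, with a gap above Dixon's critical value for 4 values. Chance gives this in about 1 of 20 groups, and 90 genes were looked at. RPS3 changed by 1.87 and RPL4A by 1.46 in WT replicate 1, the pair across slides, against at most 0.37 and 0.36 in the other pairs. Spots of both were saturated on 5 of 8 arrays, where a ratio does not give the size of a change, and their changes were equal in the replicate 2 pairs, at 0.17 in 4P and 0.32 in WT. SPC98 changed by -0.82 in 4P replicate 2, against -1.46 to -1.36 in the others, and TPS2 changed by 0.87 in 4P replicate 2, against 1.55 to 1.67 in the others.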

How the results depend on the processing

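With 4 pairs, 2 arrays per group and 1 pair across slides, counts of calls moved more than directions. Of the 67 named genes past the threshold, none reversed under the 15 alternatives and 58 to 67 kept their call, with 65 of them estimable with slide as a block. Uncalled genes whose sign turned were 8. DSE2 gave -0.04 with median centring, -0.03 with slide as a block and -0.07 to 0.26 with single pairs left out. CLN2 gave -0.27 to 0.10, YOX1 -0.36 to 0.11, and IME2 -0.07 to 0.16 in the last way. PHO84 gave 0.03 with median centring and -0.19 to 0.07. IME1 gave -0.03 with the scanner's log ratio and with the deposited table, and -0.02 to 0.24. NDT80 gave 0.05 with median centring and -0.22 to 0.06, and SPO11 0.05 with median centring and -0.16 to -0.10 with single pairs left out. The cause was not tested. In the mean of both genotypes, the scanner's log ratio gave 251 rises and 228 falls, 250 and 238 came from the deposited table, and a slide term gave 355 and 311. The fit with no replicate block gave 377 and 324. Changes of at least 1 numbered 73 and 48. Leaving out single pairs gave 263 to 429 rises and 196 to 396 falls. In 4P, rises and falls were 75 and 56 with the scanner's log ratio, 75 and 57 with the deposited table, 61 and 44 at a size of at least 1, and 62 to 153 and 57 to 118 with single pairs left out, while no replicate block gave 112 and 79. In WT they were 167 and 138, 157 and 147, 101 and 55, and 87 to 330 and 53 to 280 in the same order, 202 and 164 with no replicate block, 145 and 109 with the slide term, and 595 and 577 with array weights. For the difference, 4P minus WT, limma gave 0 falls with the scanner's log ratio, with the deposited table, with no replicate block, with the 8 arrays alone and with a slide term, where 137, 135, 93, 196 and 86 genes had an unadjusted p under 0.05. Each of these counts is a share below 0.05 of the genes tested, the share that the cut-off alone gives on average. Array weights gave 4, leaving out slide 1 gave 2, an alternative chosen after seeing the data, and leaving out single pairs gave 0 to 6 falls and 0 to 2 rises.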

Other observations

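The times of the highest and lowest group means over the course were counted for the genes called between 45 and 60 min. The lowest mean of the 545 genes that rose was most often at 45 min, for 268, or 49.2%, in each genotype. Over all genes the share was 14.1% in 4P and 14.9% in WT. The highest mean of the 515 genes that fell was also most often at 45 min, for 206 in 4P and 240 in WT, or 40.0% and 46.6%. Over all genes that share was 14.7% in 4P and 18.3% in WT. Calling genes on the change from 45 to 60 min favours both results, so these counts lend the calls no support. Among the 545 genes that rose, 189 in 4P and 113 in WT had their highest group mean at 75 min, or 34.7% and 20.7%, against 17.5% in 4P and 11.9% in WT over all genes. At 15 min after release, 180 in 4P and 218 in WT had their highest mean, or 33.0% and 40.0%, against 995 in 4P and 1589 in WT of all 6205 genes, a share that was also lower in 4P. Among the 515 genes that fell, the lowest mean was at 75 min for 149 in 4P and 78 in WT, or 28.9% and 15.1%, against 17.2% in 4P and 11.9% in WT over all genes. The difference between the genotypes in these counts was not tested, and slide and genotype largely coincide.

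Neighbours on the chromosomes were counted among the called genes, with no test. Of 533 risers placed in the RefSeq gene order, 157, or 29.5%, had an adjacent riser, against 16.7% of all 5721 genes placed. Of 500 fallers 106, or 21.2%, had an adjacent faller, against 15.9% of all genes. Neighbours can share a promoter region, overlap or be copies of each other, and these were not separated.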
